A study of Sus scrofa with 2 samples.

Results

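CYP11A1 and SULT2A1 are 2 of the 26881 features in single-cell libraries of pig endometrium, and they stand for the first step of steroid synthesis and for the sulfation of steroids. They were taken by symbol, as CYP11A1 (ENSSSCG00025052195) and SULT2A1 (ENSSSCG00025015255), chosen by their levels in earlier results of these same libraries, the contrasts between EL and EIS and between cell classes included, so their own levels are a description and no test of them is given. Both genes were followed in the embryo loss library (EL) and the implantation library (EIS), above all in cells gated by marker genes as trophoblast-like or epithelial.

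Each group was 1 Yorkshire sow aged 3 years and 1 library. The EL sow had a previous abortion and 3 unsuccessful inseminations in succession, and the labels used here give no day of sampling for her. The EIS sow was sampled at day 30, a stage at which the conceptus lies attached to the endometrium in pigs. The state of pregnancy, the stage, the animal and its library cannot be told apart, and with 1 library a group there is no replicate spread, so intervals below are exact 95% intervals that cover counting error only. About 200 mg of tissue was digested and filtered per library, and transcripts were counted with 10x Genomics 3' chemistry as unique molecular identifiers (UMIs), with levels given as UMIs per 1000000 UMIs of a class of cells (CPM).

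CYP11A1 is the mitochondrial side-chain cleavage enzyme that turns cholesterol into pregnenolone, the entry point of all steroid hormones. It needs cholesterol delivered to the inner mitochondrial membrane, a task of STAR, and electrons passed from FDXR through FDX1, and its product is turned into progesterone by 3-beta-hydroxysteroid dehydrogenase. SULT2A1 is a cytosolic sulfotransferase that, in human liver and adrenal, puts a sulfate group from the donor PAPS on hydroxysteroids such as dehydroepiandrosterone and on bile acids. The pig trophoblast is known to make steroids from the time the conceptus elongates, and the pig uterus is known to sulfate oestrogens.

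After filtering, 9864 EL and 8068 EIS cells were kept, with medians of 2323.5 and 2235 UMIs per cell. A cell was gated as trophoblast-like when at least 3 of 10 measured trophoblast markers lay above the level that free RNA could give, and as epithelial when at least 3 of 8 measured epithelial markers were detected with no other lineage. The gate is a cut on a score, not a cell type: 338 of the 554 EIS trophoblast-like cells had exactly 3 markers, and 738 further EIS cells had 2. EL held 0 trophoblast-like cells of 9864, which allows a share of up to 0.0304%, and 9 of the 10 trophoblast markers were at 0 in EL epithelial cells. The 10 markers summed to 17631 CPM in EIS trophoblast-like cells and 223 CPM in EIS epithelial cells. The 9 markers at 0 and these sums follow at least in part from the gate. It kept a cell out of the epithelial class when any trophoblast marker other than GATA2 was on. Epithelial cells numbered 4711 in EL and 1196 in EIS, with medians of 3514 and 5227.5 UMIs. SLPI, a secreted protease inhibitor, took 29.2% of the UMIs of EIS epithelial cells, 8.27% of those of trophoblast-like cells and 1.40% of those of T or NK cells. In EL epithelial cells it took 0.00307%. The libraries shared 27 cell barcodes, 23 of them kept in both, and none of the EL UMIs of CYP11A1 or SULT2A1 lay in a shared barcode.

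Both genes were close to absent from EL and abundant in EIS, and within EIS they peaked in different cells. EL held 2 CYP11A1 UMIs in 38210145 and 2 SULT2A1 UMIs. EIS held 3631 CYP11A1 UMIs and 7180 SULT2A1 UMIs in 33398271. Over all kept cells the CYP11A1 level was 0.0523 CPM in EL and 108.7 CPM in EIS, 2077-fold lower in EL (interval 575 to 17158). The SULT2A1 level was 0.0523 CPM in EL and 215.0 CPM in EIS, 4107-fold lower in EL (interval 1137 to 33921). In EIS, 52.3% of all CYP11A1 UMIs lay in the trophoblast-like gate, which held 6.87% of the cells. For SULT2A1, 53.6% of the UMIs lay in the epithelial gate, which held 14.8% of the cells.

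**Figure D1:**
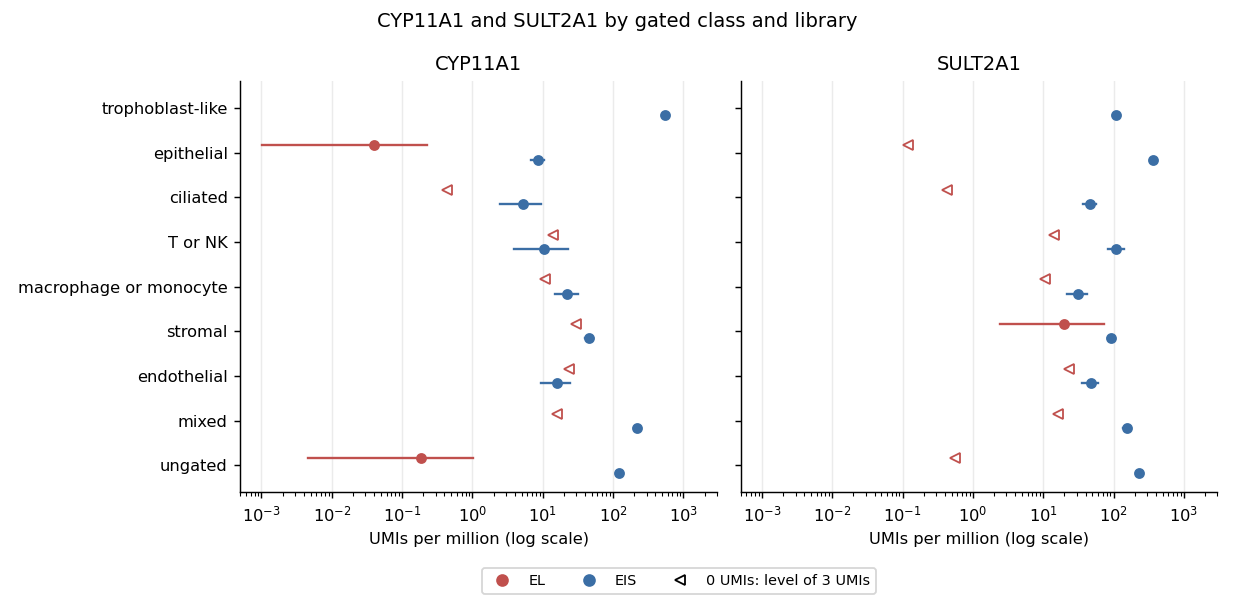
Levels of CYP11A1 (left) and SULT2A1 (right) in CPM, on a log scale, for each gated class of EL (upper point of a pair) and EIS (lower point), with exact 95% Poisson intervals. Open triangles mark classes with 0 UMIs, drawn at the level of 3 UMIs, and EL has no trophoblast-like cells. CYP11A1 is highest in EIS trophoblast-like cells and SULT2A1, among the classes drawn, in EIS epithelial cells.

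CYP11A1 was a gene of the trophoblast-like cells. The 554 EIS trophoblast-like cells held 1900 UMIs, a level of 554 CPM (529 to 579). The 1196 EIS epithelial cells held 89 UMIs, a level of 8.53 CPM (6.85 to 10.5). The level in trophoblast-like cells was 64.9-fold that in epithelial cells (52.5 to 81.2). At least 1 UMI was seen in 416 trophoblast-like cells, 75.1% (exact Clopper-Pearson interval 71.3 to 78.6), and in 6.19% of epithelial cells (4.89 to 7.71). Depth sets such shares. With each cell thinned to 1000 UMIs, which left out 7 trophoblast-like and 66 epithelial cells below that depth, the shares were 34.2% of trophoblast-like cells and 1.59% of epithelial cells. T or NK cells, used here as a reference class, gave 2.10% of 286 cells at a median of 1771.5 UMIs, and 0.717% after thinning.

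Outside the trophoblast-like gate the CYP11A1 level followed that of PLET1, an abundant trophoblast gene that is itself a gate marker. EIS cells with markers of more than 1 lineage had 216 CPM of CYP11A1 and cells that met no gate had 123 CPM. Stromal cells had 45.1 CPM, and lower levels were seen in macrophages or monocytes with 22.4 CPM, endothelial cells with 15.7 CPM, T or NK cells with 10.5 CPM, epithelial cells with 8.53 CPM and ciliated cells with 5.20 CPM. From macrophages or monocytes down to ciliated cells, no class differed from the next in this order beyond counting error, and the 24 B or plasma cells and 19 neutrophils held 0 UMIs. Set against PLET1, the trophoblast-like cells had 40.9 CYP11A1 UMIs per 1000 PLET1 UMIs. The other classes had between 32.2 in macrophages or monocytes and 59.7 in epithelial cells. The CYP11A1 ratio to PLET1 therefore differed far less between classes than the CYP11A1 level did, and epithelial cells had an interval, 47.9 to 73.5 from the CYP11A1 count, that lay above the value of the trophoblast-like cells. The epithelial gate left out cells with PLET1 on, which lowers the PLET1 count, and its part in this higher ratio was not tested. The level in epithelial cells, 0.814 times that of T or NK cells (0.360 to 2.28), did not differ from it beyond counting error. With 10% of the library profile subtracted, the 89 CYP11A1 UMIs of EIS epithelial cells fell to 0. Whether the epithelial level came from free RNA was not tested.

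**Figure D2:**
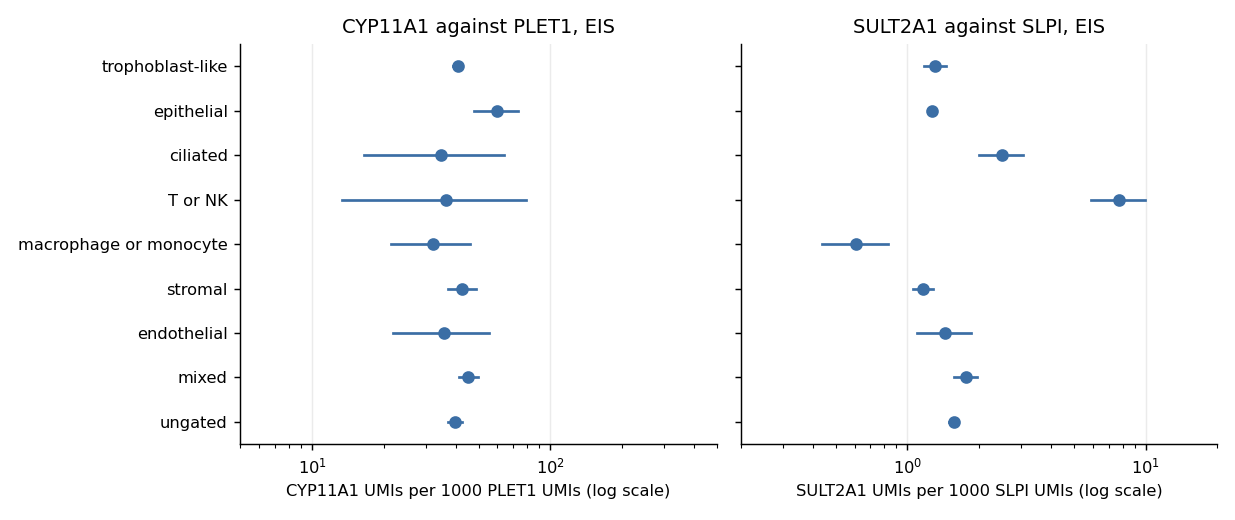
CYP11A1 UMIs per 1000 PLET1 UMIs (left) and SULT2A1 UMIs per 1000 SLPI UMIs (right), on log scales, in each gated class of EIS, with exact Poisson intervals on the CYP11A1 or SULT2A1 count. The CYP11A1 ratio runs from 32.2 to 59.7 over all classes drawn. The SULT2A1 ratio runs from 0.611 in macrophages or monocytes to 7.72 in T or NK cells, where 47 of 62 SULT2A1 UMIs lay in 1 cell.

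SULT2A1 was mainly a gene of the EIS epithelial cells and was spread more unevenly. The trophoblast-like cells held 371 UMIs, a level of 108 CPM (97.4 to 120), and the epithelial cells held 3846 UMIs, a level of 369 CPM (357 to 380). The level was 3.41-fold lower in trophoblast-like cells (3.06 to 3.80). With SLPI left out of the class totals it was 2.14 lower on the log2 scale, against 1.77 with it. The share of cells with a UMI was 35.2% of trophoblast-like cells (31.2 to 39.3) and 44.2% of epithelial cells (41.4 to 47.1). After thinning it was 11.9% and 20.1% in the same order of cells, against 1.79% of T or NK cells.

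Ciliated cells, the other epithelial lineage of the uterus, carried little SULT2A1. The EIS ciliated cells had 46.3 CPM, and the epithelial cells had 7.96-fold that level (6.45 to 9.94). The remaining EIS classes were 232 CPM in ungated cells, 154 CPM in mixed cells, 108 CPM in T or NK cells, 90.7 CPM in stromal cells, 47.1 CPM in endothelial cells, 30.9 CPM in macrophages or monocytes and 14.1 CPM in B or plasma cells. T or NK and trophoblast-like cells did not differ beyond counting error, nor did endothelial and ciliated cells. Single cells decided some of these levels. In T or NK cells 47 of the 62 UMIs lay in 1 cell, and the other 285 cells had 27.1 CPM. The 19 cells of the neutrophil gate, with a median of 621 UMIs, had the highest level, 1901 CPM, but only 5 of them held a SULT2A1 UMI and 134 of their 228 UMIs lay in 1 cell.

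Against SLPI, a product of uterine glands, SULT2A1 gave 1.31 UMIs per 1000 SLPI UMIs in trophoblast-like cells and 1.26 in epithelial cells. Stromal cells gave 1.16 and endothelial cells 1.43. T or NK cells gave 7.72, a value set mostly by the 1 cell that held 47 of their 62 SULT2A1 UMIs. These are ratios of class sums. In epithelial cells with under 2% SLPI the ratio was 120, and in those with over 40% it was 0.424. SLPI is the divisor here, so sorting by SLPI builds in such a fall, and FDX1 went from 16.0 to 0.0749. Whether SULT2A1 followed SLPI within a class was not tested. At equal SLPI the classes also differed, with 2.29 in trophoblast-like cells, from 6 UMIs, and 120 in epithelial cells under 2% SLPI. In the same order of classes the ratios were 4.91 and 15.4 at 2 to 5%, and 1.47 and 4.33 at 5 to 10%. The gap was smaller with still more SLPI, with 1.11 and 2.41 at 10 to 20% and 0.50 and 0.98 at 20 to 40%. Whether the SULT2A1 of trophoblast-like cells was made in those cells was not tested.

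Sorting the cells by the share of their UMIs that SLPI took separated the genes further. In the 87 trophoblast-like cells with under 2% SLPI, CYP11A1 had 901 CPM and SULT2A1 had 6.85 CPM, from 6 UMIs. In the next step, the 55 trophoblast-like cells with 2 to 5% SLPI, CYP11A1 had 669 CPM and SULT2A1 185 CPM. With still more SLPI the CYP11A1 level was lower at each step, with 511 CPM at 5 to 10%, 333 CPM at 10 to 20% and 224 CPM at 20 to 40%, while SULT2A1 lay between 110 and 154 CPM. STAR had 349 CPM in the trophoblast-like cells with least SLPI and 89.6 CPM in those with most, and HSD3B had 339 and 74.6 CPM. The trophoblast markers PLET1, PAG6 and GATA3 were lower too, at 22441 and 10001, 4018 and 1612, and 476 and 289 CPM. A lower level with more SLPI was therefore not particular to the steroid genes. With SLPI left out of the totals CYP11A1 had 904 and 290 CPM in the same cells. Depth differed between the steps too, with medians of 8102 UMIs under 2%, 3764.5 UMIs at 10 to 20% and 4377 UMIs at 20 to 40%, and the part of depth in these levels was not tested.

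Epithelial cells were highest in SULT2A1 where SLPI was lowest. The 139 epithelial cells with under 2% SLPI had 807 CPM, and the 218 cells in which SLPI took over 40% had 195 CPM. In between the levels were 500, 333, 370 and 321 CPM with rising SLPI. An abundant SLPI lowers every other CPM of the same cells. With SLPI left out of the totals, the levels from the lowest to the highest step were 812, 517, 360, 437, 478 and 361 CPM. Only the step under 2% stood clear of the others. The step at 2 to 5% rested on 139 UMIs and lay close to the one at 20 to 40%, and the steps from 5% up showed no order. Median depth ran 10923, 1950, 2367, 2839, 7326.5 and 16592 UMIs over the steps, and its part was not tested. SPP1, the secreted adhesion protein osteopontin, had 21594 CPM in the 139 cells with least SLPI and 11961.5 CPM in the 218 cells with most. With SLPI left out of the totals these were 21740.5 and 22148.3 CPM, so a high SPP1 was not particular to the cells with least SLPI. CYP11A1 in the 139 cells with least SLPI had 3.27 CPM (1.20 to 7.11), from 6 UMIs. T or NK cells had 10.5 CPM (3.84 to 22.8), also from 6 UMIs, and the intervals overlapped. CYP11A1 in epithelial cells was highest at 5 to 20% SLPI, with 48.8 and 46.0 CPM in the 2 steps, where PLET1 also had its highest epithelial levels, 589 and 645 CPM.

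**Figure D3:**
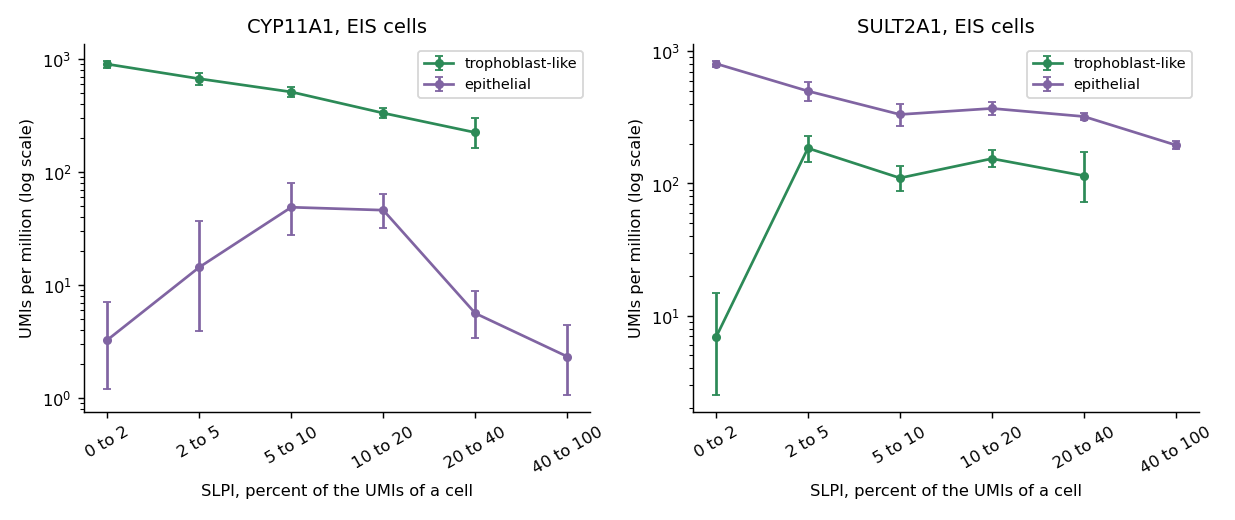
Levels of CYP11A1 (left) and SULT2A1 (right) in CPM, on a log scale, in EIS trophoblast-like and epithelial cells sorted by the percent of a cell's UMIs that were SLPI, with exact 95% Poisson intervals. SULT2A1 is at 6.85 CPM in trophoblast-like cells with under 2% SLPI and at 807 CPM in epithelial cells with under 2% SLPI.

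Neither gene was even among the cells of its own class. In trophoblast-like cells the median was 2 CYP11A1 UMIs, the ninetieth percentile 8 and the highest 44, and 138 cells held none. The 55 cells richest in CYP11A1 held 47.9% of the UMIs. In EIS epithelial cells the median was 0 SULT2A1 UMIs and the highest cell held 209, with 667 cells at 0. The 120 richest epithelial cells held 71.7% of the UMIs, and 50 cells held 20 or more. These spreads include the differences in depth between cells.

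Few thinned cells held both genes, at shares near the product of the separate shares. After thinning, 19 of 547 trophoblast-like cells held UMIs of both, 3.47%, beside 4.06% for the product of the separate shares. In epithelial cells 4 of 1130 held both, 0.354%, beside a product of 0.320%. Over all 6244 thinned EIS cells the shares were 1.11% and 1.18%. Thinning lowers such shares, and cells with both genes were not counted at full depth. There, 75.1% of trophoblast-like cells held CYP11A1 and 35.2% held SULT2A1.

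The epithelial cells of EL held almost none of either gene. SULT2A1 had 0 UMIs in the 4711 EL epithelial cells, which allows up to 0.121 CPM and up to 0.0637% of cells with a UMI, against 3846 UMIs and 369 CPM in EIS epithelial cells. The level was at least 3044-fold lower in EL, taken against 3 UMIs. Ciliated cells went the same way, with 0 UMIs in 1262 EL cells and 46.3 CPM in 269 EIS cells, at least 108-fold lower in EL. Both SULT2A1 UMIs of EL lay in its 52 stromal-gated cells. Of all 14641 features with 20 or more UMIs over both sides, 61.1% were 2-fold or more higher in EL epithelial cells and 8.55% were 2-fold or more lower. CYP11A1 and SULT2A1 both belonged to the lower side, which follows from how they were chosen.

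CYP11A1 had 1 UMI in EL epithelial cells, 0.0404 CPM, against 89 UMIs and 8.53 CPM in EIS epithelial cells, 211-fold lower in EL (37.0 to 8440). That contrast moved with trophoblast RNA: PLET1 was at 0 in EL epithelial cells and at 143 CPM in EIS epithelial cells, and its part in the contrast was not tested. In ciliated cells CYP11A1 had 0 UMIs in EL and 10 in EIS, at least 12.1-fold lower in EL, and 5 of those 10 UMIs lay in 1 cell. Ratios of EL over EIS ran high for most features, with a median of 1.27 on the log2 scale, and leaving SLPI out of the totals moved that median by -0.50.

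The partners of CYP11A1 were also higher in the trophoblast-like cells. STAR, which carries cholesterol into mitochondria, had 218 CPM in trophoblast-like cells and 11.1 CPM in epithelial cells of EIS, 19.6-fold higher (16.1 to 24.1). HSD3B, the files' symbol for the 3-beta-hydroxysteroid dehydrogenase HSD3B1, had 147 and 1.53 CPM in trophoblast-like and epithelial cells, 96.2-fold higher (58.6 to 170). FDX1, the ferredoxin, had 431 CPM in trophoblast-like cells and 58.4 CPM in epithelial cells, 7.38-fold higher (6.71 to 8.12). Its reductase FDXR had 55.4 CPM in trophoblast-like cells and 10.7 CPM in epithelial cells, 5.16-fold higher (4.06 to 6.57). All 4 kept this direction with TMM factors and with median-of-ratios size factors.

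CYP17A1, HSD17B1, NR5A1 and STARD3 were near the limit of detection. CYP17A1, the 17-hydroxylase and lyase on the way to androgens, had 2 UMIs in EIS trophoblast-like cells, 10 UMIs in EL epithelial cells and 1 UMI in EIS epithelial cells. HSD17B1, which reduces oestrone to oestradiol, had 3, 31 and 3 UMIs in the same classes. NR5A1, the nuclear receptor that drives steroid enzymes in adrenal and gonad, had 0 UMIs in EIS trophoblast-like cells, 1 in EL epithelial cells and 0 in EIS epithelial cells. STARD3 had 0 UMIs in all of them. The aromatase genes CYP19A1, CYP19A2 and CYP19A3, and HSD17B2, SULT2B1, SULT1A1, STS and NR5A2, matched no symbol in the features used here and were not analysed.

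The other measured core genes of sulfation differed less than SULT2A1 between trophoblast-like and epithelial cells. SULT1E1, the oestrogen sulfotransferase, had 17.2 CPM in trophoblast-like cells and 20.4 CPM in epithelial cells of EIS, a ratio of 0.842 (0.620 to 1.13). The enzymes that make the sulfate donor, PAPSS1 and PAPSS2, had ratios of 0.834 (0.653 to 1.06) and 0.888 (0.672 to 1.16) between trophoblast-like and epithelial cells, so for all 3 genes the interval included equal levels. With TMM factors the 3 log2 ratios were -1.04 for SULT1E1, -1.05 for PAPSS1 and -0.96 for PAPSS2, on the lower side in trophoblast-like cells as SULT2A1 was, at -2.56. In EIS epithelial cells sorted by SLPI, as SULT2A1 was above, SULT1E1 had 83.3 CPM under 2% SLPI and 0 CPM over 40%. PAPSS1 had 85.5 and 13.7 CPM, and PAPSS2 had 102 and 1.04 CPM. With SLPI left out of the totals the 3 genes had 83.9 and 0, 86.1 and 25.4, and 103 and 1.92 CPM. On that scale FDX1 and FDXR were lower over 40% SLPI too, at 108 and 63.8 and at 31.8 and 6.24 CPM, while STAR had 11.5 and 11.0 CPM. Median depth was 10923 and 16592 UMIs in the 2 steps, and its part was not tested. Between libraries, SULT1E1 had 7.34 CPM in EL and 20.4 CPM in EIS epithelial cells, 2.78-fold lower in EL (2.27 to 3.41). PAPSS1 had 41.6 CPM in EL and 31.4 CPM in EIS epithelial cells, and PAPSS2 had 42.0 and 23.3 CPM in the same order. With TMM factors both PAPSS genes turned to the lower side in EL, at log2 ratios of -0.70 and -0.25.

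The partners of CYP11A1 were detected in EL epithelial cells, where CYP11A1 had 1 UMI. STAR had 11.3 CPM in EL and 11.1 CPM in EIS epithelial cells, a ratio of 1.01 (0.813 to 1.27), which became -1.09 on the log2 scale with TMM factors. FDX1 had 207 CPM in EL and 58.4 CPM in EIS, 3.55-fold higher (3.27 to 3.87), and FDXR had 27.8 CPM in EL and 10.7 CPM in EIS, 2.59-fold higher (2.12 to 3.19). With TMM factors these were log2 ratios of 0.73 and 0.27, under 2-fold, and FDXR lay 0.11 above the median feature on the log2 scale. HSD3B rested on few UMIs, 17 in EL and 16 in EIS epithelial cells, at 0.447 times the EIS level in EL (0.213 to 0.946).

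**Figure D4:**
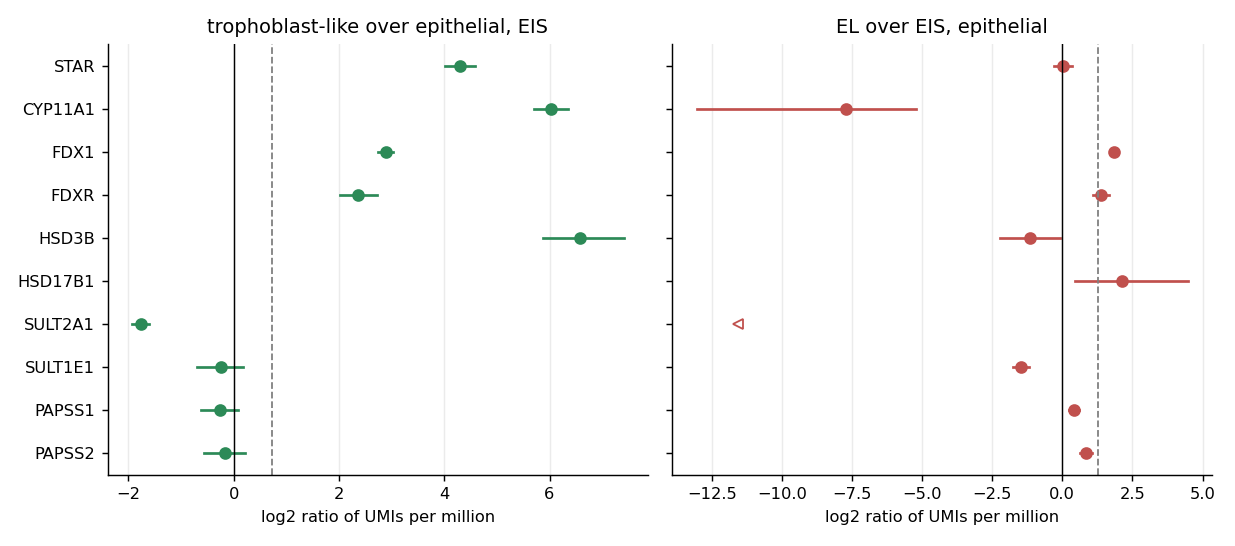
Log2 ratios of CPM for the measured core steps of steroid synthesis and sulfation, with exact conditional 95% intervals, for trophoblast-like over epithelial cells of EIS (left) and EL over EIS epithelial cells (right). The dashed line is the median of all features counted, 0.72 on the left and 1.27 on the right, and the open triangle is a bound against 3 UMIs. CYP11A1, STAR, FDX1, FDXR and HSD3B lie right of the dashed line on the left, and SULT2A1 lies left of 0 in both.

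Among 4 lists of 140 genes around the pathway, 93 had a symbol in the files. Between trophoblast-like and epithelial cells of EIS 72 were counted, of which 40 were 2-fold or more higher in trophoblast-like cells and 2 were 2-fold or more lower. Over all 12179 features counted, 35.6% were higher and 4.38% were lower. The list median was 1.23 on the log2 scale, beside 0.72 for all features. With TMM factors the split was 21 higher and 7 lower, and with median-of-ratios factors 22 and 7, since these factors moved the median of all features by -0.79 and -0.78. Of the 40 higher genes, GATA2, TFAP2A and TFAP2C were also gate markers and had to be higher.

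The list from cholesterol to steroid stood highest, with 12 of 16 members higher, 75.0% beside 35.6% of all features, none lower and a median of 2.22. Without CYP11A1 it was 11 of 15, and with either other scaling 9 of 16 were higher and 2 lower. CYB5A, an electron donor to several P450 enzymes, had 264 CPM in trophoblast-like cells and 98.6 CPM in epithelial cells, 2.67-fold higher (2.44 to 2.93). HSD17B12 was 2.57-fold higher (2.21 to 3.00) and HSD17B14 had a ratio of 1.98 (1.74 to 2.26). HSD17B7 had 41.7 CPM in trophoblast-like cells and 65.2 CPM in epithelial cells, a ratio of 0.639 (0.530 to 0.767).

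Cholesterol supply had 17 of 27 members higher and none lower, 63.0% beside 35.6% of all features. With TMM factors this became 4 higher and 1 lower, and with median-of-ratios factors 5 higher and 1 lower. NPC1 and NPC2, which move cholesterol out of lysosomes, were 7.64-fold (5.92 to 9.92) and 14.2-fold (12.9 to 15.7) higher in trophoblast-like cells, and NPC2 reached 673 CPM there, against 47.4 CPM in epithelial cells. DHCR7, an enzyme at the end of cholesterol synthesis, was 6.42-fold higher (5.43 to 7.60), and the apolipoprotein gene APOA1 3.45-fold higher (2.83 to 4.22). The list median was 1.26.

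Sulfation and desulfation had 4 of 12 members higher, 33.3% beside 35.6% of all features, with a median of 0.29. The 1 lower member was SULT2A1, and with either other scaling 2 members were higher and 3 lower. SLC26A6, an anion exchanger, had 93.8 CPM in trophoblast-like cells and 1.15 CPM in epithelial cells, 81.6-fold higher (46.1 to 160). SLC35B2, which carries PAPS into the Golgi, was 3.11-fold higher (2.62 to 3.69), SUMF1, which activates sulfatases, 2.52-fold higher (2.22 to 2.86), and BPNT1, which clears the spent donor, had a ratio of 1.98 (1.64 to 2.39). The regulators had 7 of 17 higher, 41.2% beside the same 35.6%, 4 of 14 without the gate markers, and 1 lower. That gene was CREM, a factor of cyclic AMP signalling, with 74.9 CPM in trophoblast-like cells and 153 CPM in epithelial cells, 2.04-fold lower (1.79 to 2.34). The gate markers TFAP2A, TFAP2C and GATA2 had 147, 80.4 and 154 CPM in trophoblast-like cells.

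Between EL and EIS epithelial cells 74 list genes were counted, of which 38 were 2-fold or more higher in EL and 10 were 2-fold or more lower, a share of 51.4% higher beside 61.1% of all features. With TMM factors the split was 13 higher and 16 lower, and with median-of-ratios factors 11 and 16, where the median of all features moved by -1.10 and -1.13. Relative to the median feature, 30 list genes lay above and 44 below. The count of higher genes therefore says little about the lists, and of the genes named below BPNT1, SUMF1, CREM and PRKAR1A lay only 0.17, -0.20, -0.11 and 0.19 from the median feature on the log2 scale. With TMM factors the list from cholesterol to steroid had 5 higher and 4 lower, cholesterol supply 5 and 3, sulfation 1 and 4, and the regulators 2 and 5.

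TSPO, a cholesterol-binding protein of the outer mitochondrial membrane, had 4100 CPM in EL and 132 CPM in EIS epithelial cells, 31.0-fold higher (29.4 to 32.7). CYB5A was 5.89-fold higher in EL (5.53 to 6.28), HSD17B8 5.59-fold (4.98 to 6.28) and HSD17B4 4.99-fold (4.13 to 6.06). All 4 stayed higher in EL with both other scalings. The list from cholesterol to steroid had 11 of 17 members higher, 64.7% beside 61.1% of all features, and 2 lower, which were CYP11A1 and HSD3B.

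In cholesterol supply 15 of 27 were higher in EL, 55.6% beside 61.1% of all features, and 3 lower. SOAT1, which esterifies cholesterol for storage, had 56.5 CPM in EL and 2.59 CPM in EIS, 21.8-fold higher (14.9 to 33.2). FDPS and MSMO1, enzymes of cholesterol synthesis, were 10.0-fold (9.11 to 11.0) and 6.21-fold (5.76 to 6.71) higher. APOE, a lipid carrier, went the other way, with 2.10 CPM in EL and 307 CPM in EIS epithelial cells, 146-fold lower in EL (111 to 196). APOE had 1012 CPM in EIS trophoblast-like cells and 318 CPM in T or NK cells, so its epithelial level was close to that of T or NK cells in the same library.

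Sulfation and desulfation had 4 of 13 higher in EL, 30.8% beside 61.1% of all features, and 3 lower, 23.1% beside 8.55%. The list median was 0.42, below that of all features. SLCO3A1, an organic anion carrier, had 110 CPM in EL and 7.47 CPM in EIS, 14.8-fold higher (11.8 to 18.7). BPNT1 was 2.71-fold higher (2.39 to 3.08), and SUMF1 2.09-fold higher (1.90 to 2.29), which with TMM factors became a log2 ratio of -0.04. Of the regulators 8 of 17 were higher, 47.1% beside the same 61.1%, and 2 lower. GATA2 was 5.41-fold higher (4.87 to 6.02), NR4A1 3.07-fold (2.73 to 3.46), PRKAR1A 2.74-fold (2.55 to 2.94) and CREM 2.23-fold (2.11 to 2.35), and the epithelial gate let GATA2 through but no other trophoblast marker.

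The steroid enzymes were not spread alike over the trophoblast-like cells. Cells were sorted by UMIs of CHGA, the granule protein chromogranin A, and HSD3B at full depth. Cells with CHGA only, 277 at a median of 4420 UMIs, had 467 CPM of CYP11A1, and the 42 cells with HSD3B only, at a median of 6515 UMIs, had 328 CPM, a ratio of 1.42 (1.20 to 1.70). The 145 cells with both had 796 CPM, at a median of 6058 UMIs, and the 90 cells with neither had 441 CPM, at a median of 2790 UMIs. FDX1 went the opposite way to CYP11A1, with 206 CPM in cells with CHGA only and 1513 CPM in cells with HSD3B only. STAR had 189 CPM in cells with CHGA only and 197 CPM in cells with HSD3B only.

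The cells with HSD3B but no CHGA also carried more HAVCR1 and DPPA5, genes named here after their values had been seen. HAVCR1 had 113 CPM in cells with CHGA only and 3057 CPM in cells with HSD3B only, and DPPA5 had 365 and 12485 CPM in the same order. SULT2A1 had 142 CPM in cells with CHGA only and 31.4 CPM in cells with HSD3B only, and SLPI moved with it, at 108813 and 41924 CPM. After thinning, 81 of the 187 cells with CYP11A1 held CHGA, 43.3% of them and 38.2% of the 212 cells with CHGA. Of thinned cells without CYP11A1, 36.4% held CHGA.

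**Figure D5:**
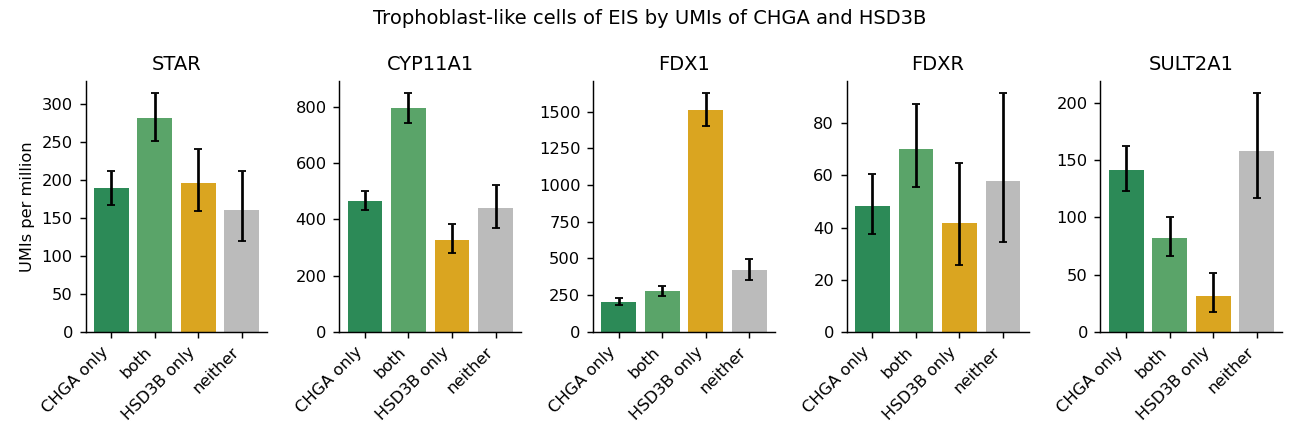
Levels in CPM of 4 steroid genes and SULT2A1 in EIS trophoblast-like cells with UMIs of CHGA only, both CHGA and HSD3B, HSD3B only, or neither, with exact 95% Poisson intervals. Each panel has its own scale from 0. CYP11A1 is highest, at 796 CPM, in cells with both and FDX1, at 1513 CPM, in cells with HSD3B only.

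Over the 547 thinned trophoblast-like cells, the genes whose log levels were most like CYP11A1, among 1949 genes ranked, were SMPDL3A (Pearson r = 0.26), LGMN (0.25), HK1 (0.23), CTSH (0.22) and FABP5 (0.22). LGMN and CTSH encode lysosomal proteases, HK1 a hexokinase and FABP5 a fatty acid carrier. STAR, FDX1 and HSD3B had r of -0.002, 0.02 and -0.03, and SLPI -0.23. Over the 1130 thinned epithelial cells, those most like SULT2A1 among 1325 genes were DPP4 (0.24), AKR1C3 (0.22), CBR1 (0.22), PRXL2A (0.22) and IGFBP2 (0.21). DPP4 is a membrane peptidase, AKR1C3 and CBR1 are carbonyl-reducing enzymes, and IGFBP2 binds insulin-like growth factors. DPP4 had 0.484 CPM in EL and 179 CPM in EIS epithelial cells. These correlations are weak, cells share their library and free RNA, and they are given as a description.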

How the data were processed

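The authors deposited UMI counts for every gene and cell barcode, without normalization. The tool was Cell Ranger 2.1.1 per the submitters' processing notes and cellranger 6.1.0 per the file headers, and neither a genome build nor an annotation is named by the labels or headers used here. No symbol is given for 16128 of the 26881 features, with 26.7% of EL and 23.0% of EIS UMIs. Symbols come from the files, and 1 listed gene was matched by a RefSeq synonym. The libraries held 43302286 UMIs in 10936 barcodes (EL) and 36069473 UMIs in 8848 barcodes (EIS).

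Barcodes with at least 500 UMIs and 300 genes were kept. Scrublet in scanpy 1.11.5 called only 0 EL and 1 EIS doublets by its automatic threshold, so the top 0.8% of scores per 1000 barcodes was removed, 933 in EL and 601 in EIS. A marker counted as on when its UMIs passed the upper 0.05 Poisson tail of 0.5 times the cell's own library profile. Trophoblast-like, ciliated, immune, stromal and endothelial cells needed 3 markers on, cells of more than 1 lineage were called mixed, and epithelial cells needed 3 detected epithelial markers and, apart from GATA2, no trophoblast marker on. This scoring was set after the data had been seen. EPCAM, KRT7, KRT19 and CDH1 matched no symbol in the features used here.

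UMIs were summed per library and class (pandas 2.3.3, scipy 1.17.1 and numpy 2.4.6 in Python 3.11.15), with exact Poisson, conditional Poisson and Clopper-Pearson intervals at 95%, which cover counting error only, and bounds against 3 UMIs where a side had 0. The interval code was tested on simulated data. With 1 library a group no test across sows exists and no p-value is given. Genes with 20 or more UMIs over both sides were counted past 2-fold. TMM factors came from edgeR 4.0.16. The genes named were CYP11A1 and SULT2A1, 19 core steps, up to 4 further genes per list and comparison with the largest ratios at 50 CPM or more, the 5 genes most like each member among those seen in 5% or more of thinned cells, and CHGA. PLET1, SLPI, SPP1, HAVCR1 and DPPA5 were added after their values were seen. The members, lists and markers were chosen with earlier results of these data known. Other filters, gates, scalings, free RNA removal and thinning were tried as alternatives.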

Additional observations from a re-analysis of the deposited data

How the results depend on the processing

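The 4 ratios of CYP11A1 and SULT2A1 kept their direction under every alternative that gave a value, whereas single partner genes turned with the scaling, as given beside them. Values are log2 ratios unless said otherwise. For CYP11A1 in trophoblast-like over epithelial cells (6.02), the value was 6.51 with 1 more marker in the gate, 7.39 and 5.03 with free RNA in the gate at 0.1 and 1.0 of the library profile, 6.60 in trophoblast-like cells under 5% SLPI, 5.65 without SLPI in the totals, 5.23 with TMM and 5.24 with median-of-ratios factors, 4.84 after thinning, and at least 10.88 with 10% of the library profile subtracted. For SULT2A1 in the same cells (-1.77), these were -2.21 with 1 more marker, -2.12 with free RNA at 1.0, -2.50 under 5% SLPI, -2.14 without SLPI, -2.56 with TMM, -2.55 with median-of-ratios factors, -2.00 after subtraction and -1.36 after thinning. For SULT2A1 in EL over EIS epithelial cells (at most -11.57), the bounds were -11.67 with doublets kept, -11.13 with 1 more marker, -12.07 without SLPI, -12.68 with TMM, -12.70 with median-of-ratios factors, -11.48 after subtraction and -8.95 after thinning. CYP11A1 in the same cells (-7.72) lay between -8.95 and -6.21 over the alternatives that left UMIs on both sides and was at most -5.55 with 1 more marker, and subtraction left too few UMIs for a value. The share of trophoblast-like cells with CYP11A1 (75.1%) was 80.1% with 1 more marker, 68.8% and 81.2% with free RNA at 0.1 and 1.0, 87.3% under 5% SLPI and 34.2% after thinning. The share of epithelial cells with SULT2A1 (44.2%) was 52.4% with at least 1000 genes, 50.2% with 1 more marker, 47.8% with free RNA at 0.1 and 20.1% after thinning. The list genes past 2-fold in EL over EIS (48) numbered 29 with TMM and 27 with median-of-ratios factors, and those in trophoblast-like over epithelial cells (42) ranged from 28 to 52. The cause of these moves was not tested. Free RNA levels of 0.1 and 1.0, the limit on SLPI, leaving SLPI out and leaving out shared barcodes were chosen after seeing the data. No paired analysis was possible because each group is 1 library. Depth limits EL to an upper level of 0.121 CPM for SULT2A1 in epithelial cells, and levels that rest on a few cells, as in the neutrophil gate, are the least certain.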
